A study of Homo sapiens with 9 samples.

Results

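The genes for the chains of collagens and laminins were examined in MDA-MB-231 cells, a human line of triple-negative breast cancer. A gene was taken as a member if its symbol was COL, a number, A and a number, or LAMA, LAMB or LAMC and 1 digit. This gave 56 genes, 44 for collagen chains and 12 for laminin chains, among 60664 genes counted, of which 60463 were matched to a symbol. The rule uses symbols and no measured value, but it was set with earlier results of these data known. RNA was sequenced in 9 samples on day 6, in 3 groups of 3. The control groups expressed a scramble RNA (SC) and were kept in medium of 0.77 cP or of 8 cP. The other group, shTRPV4, was kept at 8 cP with *TRPV4*, the gene of a calcium channel of the plasma membrane, knocked down by a hairpin. Per the study's methods, wild-type cells were stably transduced with lentivirus for the scramble or the *TRPV4* hairpin, so that all groups carried the vector, and the medium was thickened with methylcellulose. The labels name only 1 hairpin and do not say whether the shTRPV4 line was 1 clone. Since no shTRPV4 cells at 0.77 cP were analysed here, whether the knockdown alters the effect of viscosity was not tested. The labels do not say that the replicates came from separate cultures, so the p-values measure the spread between these samples, which may be technical.

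Collagens are trimers of alpha chains whose repeats of glycine and 2 further residues (Gly-X-Y) wind into a triple helix. Types I and V form fibrils, type IV forms the network of basement membranes, type VI forms beaded filaments and type VII forms the anchoring fibrils that tie epithelia to the stroma. Laminins are heterotrimers of an alpha, a beta and a gamma chain, are the other network of basement membranes, and bind integrins on the cell. Laminin-332, to which the chains of *LAMA3* and *LAMB3* belong, is known from epithelia and from carcinoma cells at invasive fronts. In the canonical proteins of the annotation (GENCODE release 44), the longest unbroken Gly-X-Y run was between 23 and 343 triplets in the 44 collagen chains and at most 4 triplets in the 12 laminin chains.

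Depth ran from 64571681 to 103518036 counts per sample. The hairpin's target, *TRPV4*, was counted 7, 1 and 13 times in replicates 1, 2 and 3 of the shTRPV4 group, 64, 45 and 24 times in the SC group at 8 cP and 40, 28 and 54 times in that at 0.77 cP. Of the genes fixed as markers of the line, *VIM*, *CD44*, *AXL* and *CAV1* summed to between 3908 and 4330 CPM in every sample (CPM, a gene's share of a sample's scaled counts). Within this sum *VIM* was lower and *AXL* higher in SC cells at 8 cP than at 0.77 cP (log2 fold changes -0.17 and 0.22). Both were lower in shTRPV4 than in SC cells at 8 cP (-0.28 and -0.31). *CD44* and *CAV1* were not called in either comparison. *ESR1*, *PGR*, *CDH1* and *KRT5* had at most 12 counts in a sample, whereas *EPCAM* and *GATA3*, fixed as low or absent, were present at between 11.9 and 19.4 CPM. *GATA3* was higher in shTRPV4 than in SC cells at 8 cP (log2 fold change 0.30). For 8 markers of stromal cells, which make most interstitial collagen, the summed level was between 8.18 and 9.31 CPM in SC cells at 0.77 cP, 6.59 and 7.03 CPM in SC cells at 8 cP, and 7.42 and 8.65 CPM in shTRPV4 cells. In that list, *DCN*, *POSTN*, *PDGFRA* and *THY1* had at most 5 counts in a sample. The others had more, with 345 to 625 counts for *PDGFRB*, 94 to 154 for *ACTA2*, 60 to 145 for *LUM* and 7 to 53 for *FAP*. *PDGFRB* and the endothelial marker *PECAM1* were lower in SC cells at 8 cP than at 0.77 cP (log2 fold changes -0.51 and -0.86). *CDH5* had at most 1 count. The part of such cells in the results was not tested.

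Of the 56 members, 38 passed the filter on low counts, 27 for collagen and 11 for laminin chains. The other 18 had at most 13 counts in any sample. The gene *COL5A3* had 0 counts in all samples, and *COL3A1* and *COL2A1*, for the chains of the fibrillar collagens III and II, had at most 9 and 1. At most 1 count was found for *COL19A1*, *COL22A1*, *COL6A5*, *COL6A6*, *COL9A1* and *LAMC3*, and at most 2 for *COL10A1*, *COL14A1*, *COL23A1* and *COL25A1*. The highest counts were 5 for *COL26A1*, 6 for *COL11A1*, 9 for *COL4A3*, 11 for *COL28A1* and 13 for *COL21A1*. The cells thus listed reads for both chains of type I but hardly any for type III.

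Levels of different genes are given as CPM per kilobase of exon, averaged over the 9 samples. The highest was that of *LAMB3* (ENSG00000196878, chr1:209614870-209652425, minus strand of GRCh38), the beta chain of laminin-332, at 94.8 CPM per kilobase. It was 103 ± 2.62 in SC cells at 0.77 cP, 92.7 ± 2.35 in SC cells at 8 cP and 88.5 ± 6.83 in shTRPV4 cells (SD, n = 3). Next came *LAMC1*, the gamma chain of most laminins, at 48.7 CPM per kilobase, *COL18A1*, the core of a basement membrane proteoglycan that releases endostatin, at 33.9, *LAMB2*, a laminin beta chain, at 30.2, and *COL5A1*, a chain of fibrillar type V, at 28.4. *LAMB3* differed from the rest by far more than its spread. *LAMC1* and *COL18A1* were closest in SC cells at 0.77 cP, at 47.2 ± 0.751 and 40.3 ± 3.89 CPM per kilobase (SD, n = 3). They lay further apart in SC cells at 8 cP (48.4 ± 1.22 and 33.8 ± 2.12) and in shTRPV4 cells (50.4 ± 0.697 and 27.8 ± 0.327). In SC cells at 8 cP *LAMB2* was at 29.3 ± 2.29, *COL5A1* at 27.6 ± 2.33 and *COL6A1* at 25.4 ± 1.42 CPM per kilobase (SD, n = 3). In that group, neighbours in this order differed by less than the larger of their SDs. In SC cells at 0.77 cP *LAMB2* and *COL5A1* differed by more, at 36.3 ± 2.92 and 32.3 ± 2.81. Of the tested members, 12 had at least 10 CPM per kilobase, 11 between 1 and 10, and 15 less than 1. With the longest transcript as the length, *COL13A1*, a collagen of the plasma membrane, moved from rank 8 to rank 2 (20.3 and 68.7 CPM per kilobase). Its annotated exons cover 11509 bases together and its longest transcript 3396 bases.

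**Figure D1:**
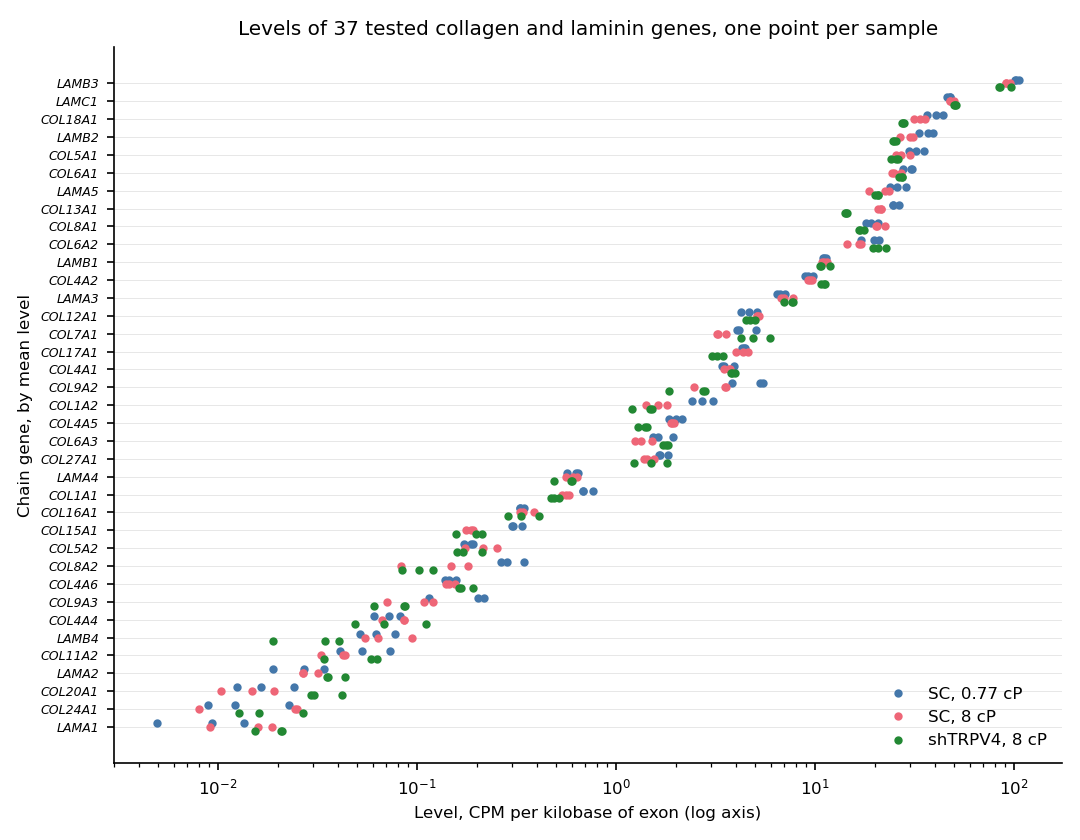
Level of 37 of the 38 tested chain genes in CPM per kilobase of exon (horizontal log axis), 1 point per sample, coloured by group and ordered by the mean over 9 samples. *LAMB3* lies highest at a mean of 94.8 and *LAMA1* lowest at 0.0143, and the 3 groups of most genes lie close together beside this range.

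Chains of the same type differed in RNA, some widely and others, such as *COL6A1* and *COL6A2*, less. In basement membrane type IV, *COL4A2* was at 9.92 and *COL4A1* at 3.71 CPM per kilobase, whereas the further chains were lower, with 1.76 for *COL4A5*, 0.155 for *COL4A6* and 0.0757 for *COL4A4*. In type VI, *COL6A1* and *COL6A2* reached 27.4 and 18.8, against 1.61 for *COL6A3*. In type I, *COL1A2* was at 1.92 and *COL1A1* at 0.587 CPM per kilobase, and in type V *COL5A2* was at only 0.192 beside the 28.4 of *COL5A1*. For laminin-332, *LAMB3* at 94.8 stood over *LAMA3* at 7.13. Among the other laminin chains, *LAMA5* was at 22.7, *LAMB1* at 11.1 and *LAMA4* at 0.591 CPM per kilobase. These levels depend on the length used. With that of the longest transcript *COL4A2* was at 29.7, *COL4A1* at 8.31 and *COL4A5* at 3.20. *COL6A1* was then at 36.0, *COL6A2* at 29.1, *COL6A3* at 3.30, *COL1A2* at 3.46 and *COL1A1* at 0.894. For laminin-332, *LAMB3* was at 102 and *LAMA3* at 9.69 with this length. *LAMA4* was then at 0.980 CPM per kilobase and *LAMB1* at 30.7, above *LAMA5* at 28.4.

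Promoter sequences from RefSeq (GRCh38.p14, 250 bases before to 50 after a start) matched 41 of the 56 members, with no entry for *COL1A1*, *COL1A2*, *COL6A1* and 12 others. They are shown for 3 chains that differed between groups and for the stretch between *COL4A1* and *COL4A2*, and end where an annotated exon begins. Capitals mark matches on either strand to the GC box (GGGCGG), the CCAAT box (CCAAT), AP-1 (TGANTCA) or TEAD (GGAATG) motif. The start sites of *COL4A1* and *COL4A2* lie head to head with 126 bases between them. The first line gives 100 of these bases on the plus strand (chr13:110307158-110307257). The others are *COL7A1* (chr3:48595330-48595529, minus strand), *COL6A2* (chr21:46097912-46098111, plus strand) and *COL13A1* (chr10:69801706-69801879, plus strand), each 5′ to 3′.
COL4A1-COL4A2: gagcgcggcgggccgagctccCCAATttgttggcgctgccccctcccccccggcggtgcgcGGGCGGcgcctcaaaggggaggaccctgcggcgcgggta
COL7A1: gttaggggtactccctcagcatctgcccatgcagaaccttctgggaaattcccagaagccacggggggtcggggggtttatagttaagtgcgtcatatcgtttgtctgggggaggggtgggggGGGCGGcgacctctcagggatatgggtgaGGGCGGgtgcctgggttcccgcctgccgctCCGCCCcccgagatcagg
COL6A2: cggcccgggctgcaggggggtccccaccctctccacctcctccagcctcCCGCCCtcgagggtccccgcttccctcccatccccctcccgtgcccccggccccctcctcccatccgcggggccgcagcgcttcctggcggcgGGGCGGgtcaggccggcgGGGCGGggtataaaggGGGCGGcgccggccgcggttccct
COL13A1: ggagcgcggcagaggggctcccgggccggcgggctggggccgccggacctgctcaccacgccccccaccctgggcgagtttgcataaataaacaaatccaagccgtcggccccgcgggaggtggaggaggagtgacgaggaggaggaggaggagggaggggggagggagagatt

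The *COL4A1* and *COL4A2* stretch held 1 CCAAT box and 1 GC box, the *COL7A1* stretch 3 GC boxes and the *COL6A2* stretch 4, and that of *COL13A1* held none of the 4 motifs. In the 300-base windows, 27 of the 41 matched members (65.9%) held a GC box, beside 48.3% of 27305 genes in the table. A CCAAT box was in 14 members (34.1%, beside 39.7% of genes), a TEAD motif in 4 (9.76%, beside 16.7%) and an AP-1 motif in 3 (7.32%, beside 9.37%). The AP-1 matches were in *COL10A1*, *LAMA3* and *LAMB3*, of which *LAMA3* and *LAMB3* are chains of laminin-332. These matches are letters in a window, overlaps between motifs were not excluded, and a gene with several starts was counted once.

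The first comparison addressed elevated viscosity and set SC cells kept at 8 cP against those kept at 0.77 cP. Of the 38 tested members, 14 fell and 0 rose (adjusted p below 0.05 in edgeR's quasi-likelihood test, Benjamini-Hochberg adjustment over all 18264 genes tested). Over all genes tested, 9.69% fell and 9.57% rose, so the share of members that fell, 36.8%, was above the background, and that of members that rose was below it. Of the 24 others, 15 had a positive value. The median log2 fold change was -0.11 over the tested members and -0.01 over all genes tested. In bulk RNA, fewer cells that express a gene and less RNA per cell cannot be told apart.

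All 3 tested type VI chains, both chains of type I, both multiplexins (*COL15A1* and *COL18A1*) and the anchoring fibril chain *COL7A1* were among the 14, and 0 of 5 tested type IV chains were. Of the 11 tested laminin chains only *LAMA5* and *LAMB2* fell. Samples of the 2 groups did not overlap for 14 members, all lower at 8 cP, beside 19.0% of all genes lower and 19.4% higher. These were the called members other than *COL5A1* and *COL6A2*, together with *LAMB3* and *COL27A1*.

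The type I chain *COL1A2* (ENSG00000164692, chr7:94394895-94431227, plus strand) had 33.1, 29.3 and 26.2 CPM at 0.77 cP and 19.4, 17.5 and 15.3 CPM at 8 cP in replicates 1, 2 and 3 of SC cells. All samples at 8 cP lay below all at 0.77 cP (log2 fold change -0.76, SE 0.10, adjusted p = 0.000246). Its partner *COL1A1* fell less, from 6.89, 6.17 and 6.13 CPM to 5.03, 4.80 and 5.25 CPM, again without overlap (log2 fold change -0.35, SE 0.09, adjusted p = 0.0117). The ratio of *COL1A2* to *COL1A1*, per kilobase, was 3.999, 3.96 and 3.55 at 0.77 cP and 3.22, 3.04 and 2.43 at 8 cP, a log2 difference of -0.41 (two-sided exact permutation test, p = 0.1, the smallest that 3 against 3 samples allow).

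*COL8A2*, a chain of the short-chain network of type VIII, changed by the largest factor of the 14, at a low level. It had 1.61, 1.23 and 1.32 CPM at 0.77 cP and 0.839, 0.694 and 0.386 CPM at 8 cP, without overlap (log2 fold change -1.12, SE 0.25, adjusted p = 0.00658). Its partner chain *COL8A1*, which is far more abundant, had 195, 170 and 181 CPM and 194, 191 and 211 CPM, groups that overlapped (log2 fold change 0.13, SE 0.05, adjusted p = 0.119). *COL15A1*, a basement membrane multiplexin, fell from 1.99, 2.01 and 2.25 CPM to 1.17, 1.27 and 1.24 CPM, and all samples at 8 cP were lower (log2 fold change -0.76, SE 0.15, adjusted p = 0.00328).

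*COL9A2*, a chain of the fibril-associated type IX of cartilage, had 23.1, 22.4 and 16.2 CPM at 0.77 cP and 14.8, 15.1 and 10.4 CPM at 8 cP, without overlap (log2 fold change -0.61, SE 0.16, adjusted p = 0.0174). *COL7A1* (ENSG00000114270, chr3:48564073-48595329, minus strand) had 56.2, 45.1 and 46.0 CPM and 39.8, 36.2 and 35.8 CPM, also without overlap (log2 fold change -0.40, SE 0.10, adjusted p = 0.0147). Of the 14, only *COL8A2*, *COL15A1* and *COL1A2* fell further than these.

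The type VI chains fell by similar amounts. *COL6A3* had 41.8, 34.9 and 33.1 CPM at 0.77 cP and 32.6, 28.6 and 26.9 CPM at 8 cP. *COL6A2* had 111, 106 and 91.0 CPM and 91.2, 89.3 and 77.5 CPM. *COL6A1* had 168, 170 and 154 CPM and 150, 138 and 135 CPM. The groups overlapped for *COL6A2*, where replicate 1 at 8 cP lay above replicate 3 at 0.77 cP, and not for the other chains. The log2 fold changes were -0.32 (SE 0.08, adjusted p = 0.0142) for *COL6A3*, -0.26 (SE 0.08, adjusted p = 0.0279) for *COL6A2* and -0.22 (SE 0.05, adjusted p = 0.00876) for *COL6A1*.

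Among abundant chains the falls were small. *COL13A1* (ENSG00000197467, chr10:69801880-69964275, plus strand) had 304, 285 and 285 CPM at 0.77 cP and 247, 246 and 238 CPM at 8 cP (log2 fold change -0.26, SE 0.04, adjusted p = 0.00127), and the groups did not overlap. *LAMB2*, a beta chain of kidney and neuromuscular basement membranes, had 268, 253 and 228 CPM and 213, 206 and 183 CPM, without overlap (log2 fold change -0.31, SE 0.06, adjusted p = 0.00373). *LAMA5*, an alpha chain of many adult basement membranes, had 409, 368 and 341 CPM and 335, 323 and 268 CPM, and its samples at 8 cP were all lower (log2 fold change -0.27, SE 0.08, adjusted p = 0.02). *COL18A1* had 374, 342 and 308 CPM and 303, 286 and 268 CPM, without overlap (log2 fold change -0.26, SE 0.06, adjusted p = 0.0107), but 1563 of its exon bases are shared with *SLC19A1* on the other strand, and the strand option of the counting is not given in the sources used here. Among others, overlaps with genes of the other strand also cover 484 exon bases of *LAMB1*, 362 of *LAMA5*, 206 of *LAMA4* and 137 of *COL15A1*. They cover 95 of *COL4A2*, 59 of *COL1A1* and 54 of *COL5A1*. The counts of these genes may be affected, which was not tested. *COL5A1* had 393, 358 and 331 CPM and 337, 301 and 287 CPM, and replicate 1 at 8 cP lay above replicate 3 at 0.77 cP (log2 fold change -0.23, SE 0.07, adjusted p = 0.0278).

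**Figure D2:**
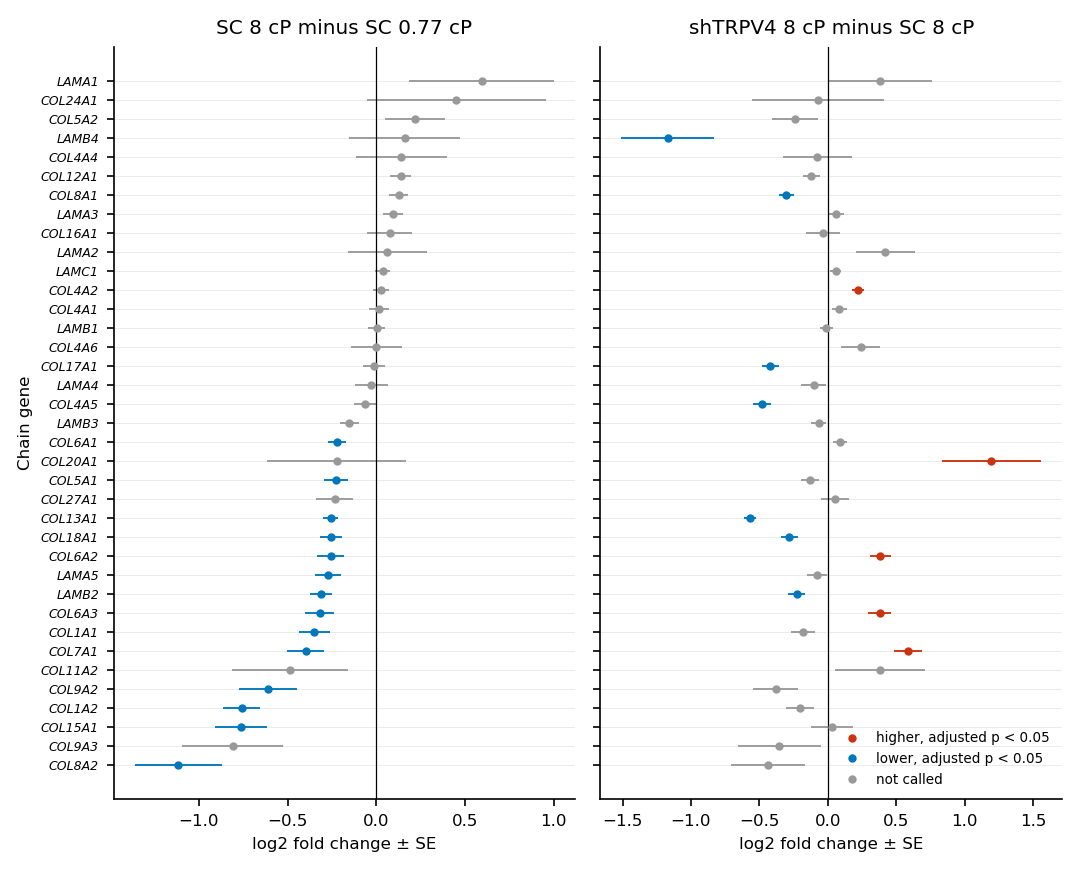
The log2 fold changes with standard errors of 37 of the 38 tested chain genes (vertical order by the left panel), for SC cells at 8 cP minus SC cells at 0.77 cP (left) and shTRPV4 minus SC cells at 8 cP (right), coloured by the edgeR call. On the left 14 of those plotted fall and 0 rise. On the right 5 of those plotted rise and 7 fall, and *COL6A2*, *COL6A3* and *COL7A1* are coloured as lower on the left and higher on the right.

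Other laminin and type IV chains were not called. *LAMA3* was 0.09 (SE 0.06), *LAMC1* 0.04 (SE 0.04), *LAMB1* 0.00 (SE 0.05), *COL4A1* 0.02 (SE 0.05), *COL4A2* 0.03 (SE 0.04) and *COL4A5* -0.06 (SE 0.06) on the log2 scale. *LAMB3*, the member with the highest level, had 469, 475 and 492 CPM at 0.77 cP and 443, 424 and 425 CPM at 8 cP. Its groups did not overlap, and its adjusted p of 0.0532 (log2 fold change -0.15, SE 0.05) fell just short of the threshold. *COL8A1*, *COL12A1*, *COL17A1*, *COL27A1* and *LAMA4*, likewise not called and of at least 5 CPM in a group, had log2 fold changes between -0.23 and 0.14. The 11 below 5 CPM ranged from -0.81 to 0.59 with standard errors from 0.13 to 0.51.

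**Figure D3:**
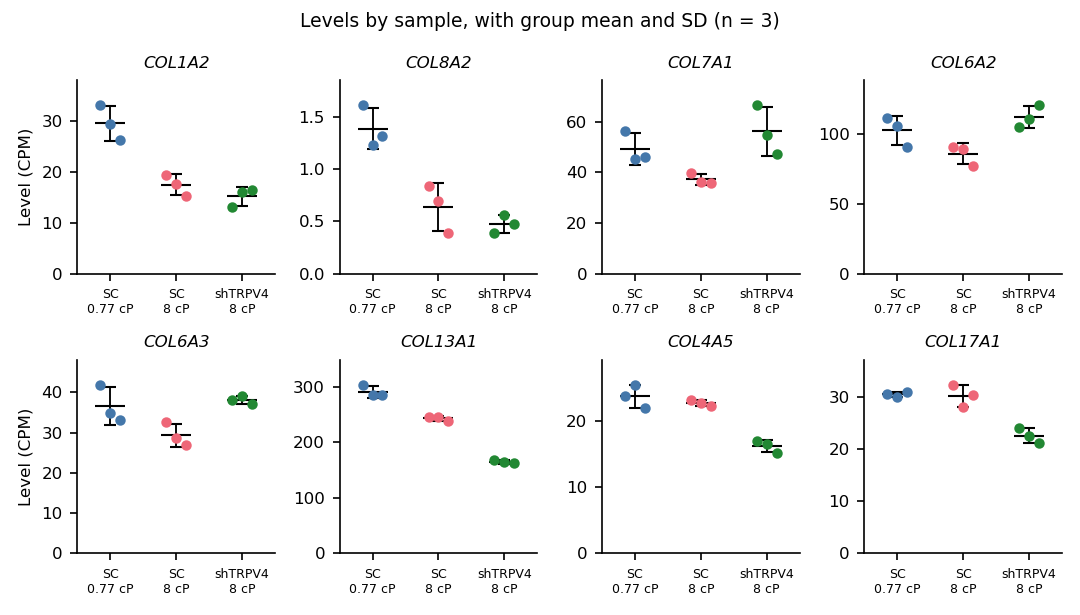
CPM of 8 chain genes in the 9 samples, grouped by condition, with the mean and SD of each group (n = 3, axes from 0). *COL1A2* and *COL8A2* are lower in both groups at 8 cP. The means of *COL7A1*, *COL6A2* and *COL6A3* are lowest in SC cells at 8 cP. *COL4A5* and *COL17A1* are lower in shTRPV4 cells, and *COL13A1* steps down from group to group.

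Most of these falls were moderate and several moved with base composition and with single libraries. Among the 18 tested members among the 25% of genes with the highest GC content, 11 fell at 8 cP, and among the 20 others 3 fell. Over all genes, 17.6% fell and 4.56% rose in that class, against 7.02% and 11.3% in the others. The centred level of the 25% of genes highest in GC, less that of the 25% lowest, was 0.08 in replicate 1 of SC cells at 0.77 cP and -0.06 in replicate 3 at 8 cP on the log2 scale, the extremes of the 9 samples. With the trend with GC removed from each sample, an alternative chosen after the data had been seen, 9 of the 14 members were still called and 0 were gained. *COL18A1*, *COL5A1*, *COL6A1*, *COL6A2* and *LAMA5* then fell short of the threshold, with log2 fold changes between -0.17 for *LAMA5* and -0.13 for *COL6A1*. *COL13A1*, *COL7A1* and *LAMB2*, also among the 25% of genes highest in GC, were still called, at -0.19, -0.30 and -0.24.

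Without replicate 1 of SC cells at 0.77 cP only 5 of the 14 were called as lower, with *COL12A1* then called as higher, and without replicate 3 of SC cells at 8 cP 6 of the 14 were called. Without replicate 2 of SC cells at 0.77 cP 9 were called. *COL13A1*, *COL15A1*, *COL1A2*, *COL8A2* and *LAMB2* were called as lower in all 16 alternatives tried. Of these, *COL1A2* was at -0.66 without replicate 1 of SC cells at 0.77 cP and at -0.72 with the GC trend removed, beside -0.76 in the full fit.

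**Figure D4:**
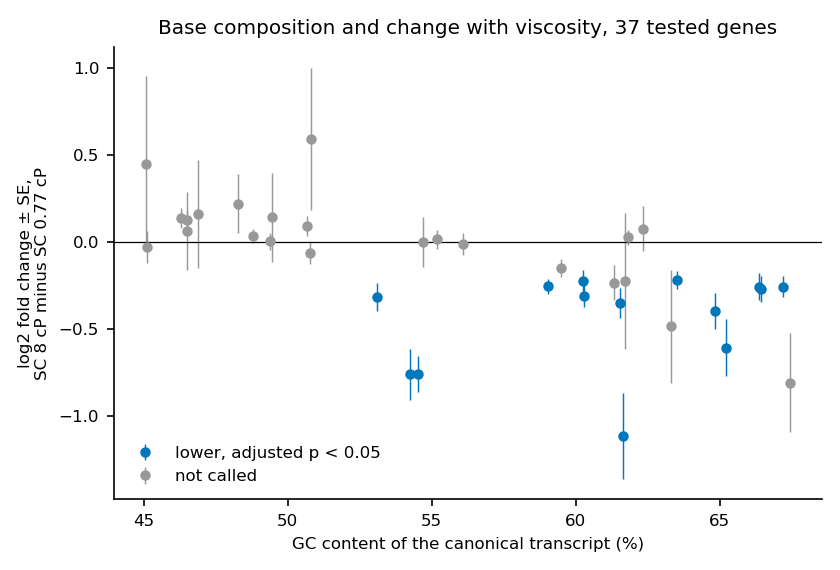
GC content of the canonical transcript (horizontal axis, percent) against the log2 fold change of SC cells at 8 cP minus SC cells at 0.77 cP with its standard error, 1 point for each of 37 of the 38 tested members. Of the 14 members that fell, 11 belong to the 25% of genes highest in GC, and *COL6A3*, *COL15A1* and *COL1A2* lie below that class, at 53.1%, 54.3% and 54.5%.

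The second comparison set shTRPV4 cells against SC cells, both at 8 cP. It shares the 3 samples of SC cells at 8 cP with the first, so that a high or low value there acts on both with opposite signs. Of the 38 tested members 6 rose and 7 fell. Over all genes tested, 9.02% rose and 11.0% fell, beside 15.8% and 18.4% of the members. Of these members 32 were among the 25% of genes with the longest canonical transcripts, and in that class 12.3% of genes rose and 14.5% fell. The median log2 fold change was -0.07 over the tested members and 0.00064 over all genes tested. Samples did not overlap for 9 members higher and 9 lower in shTRPV4 cells, beside 17.6% and 18.8% of all genes.

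The laminin chains *LAMA3*, at 0.06 (SE 0.06, adjusted p = 0.496), *LAMB3*, at -0.07 (SE 0.05, adjusted p = 0.419), and *LAMC1*, at 0.06 (SE 0.04, adjusted p = 0.346), gave no call.

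*COL7A1* rose from 39.8, 36.2 and 35.8 CPM in SC cells at 8 cP to 66.4, 54.6 and 47.3 CPM in shTRPV4 cells, whose 3 samples differed widely and all lay higher (log2 fold change 0.59, SE 0.10, adjusted p = 0.000878). *COL6A2* rose from 91.2, 89.3 and 77.5 CPM to 105, 111 and 121 CPM, without overlap (log2 fold change 0.39, SE 0.08, adjusted p = 0.00225). *COL6A3* rose from 32.6, 28.6 and 26.9 CPM to 38.2, 39.2 and 37.2 CPM, also without overlap (log2 fold change 0.38, SE 0.08, adjusted p = 0.00399). These 3 are the chains that had fallen at 8 cP and rose in the knockdown, and against SC cells at 0.77 cP none was called, with log2 fold changes of 0.19, 0.13 and 0.06. In that comparison, however, *COL7A1* was called as higher in 5 of the 16 alternatives, among them the replicate block and the fit without replicate 1 of SC cells at 0.77 cP, at 0.19 to 0.30. *COL6A2* was so in 1, with the GC trend removed, at 0.24. The shared chain *COL6A1*, by contrast, was at 0.09 (SE 0.05, adjusted p = 0.252), and the ratio of *COL6A2* to *COL6A1* per kilobase was 0.632, 0.672 and 0.597 in SC and 0.719, 0.789 and 0.830 in shTRPV4 cells at 8 cP.

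*COL4A2* rose by a small amount, from 182, 186 and 179 CPM to 213, 208 and 216 CPM, and all shTRPV4 samples were higher (log2 fold change 0.22, SE 0.04, adjusted p = 0.00248). *COL4A1*, read in the other direction from the stretch printed above, had 53.9, 55.0 and 51.5 CPM and 55.6, 56.4 and 58.1 CPM, apart by a narrow margin and with no call (log2 fold change 0.08, SE 0.05, adjusted p = 0.306). Their ratio per kilobase was 2.57, 2.57 and 2.64 in SC and 2.91, 2.80 and 2.82 in shTRPV4 cells (log2 difference 0.13, two-sided exact permutation test, p = 0.1). *COL20A1*, a rare fibril-associated chain, had 0.162, 0.114 and 0.209 CPM and 0.458, 0.332 and 0.321 CPM, without overlap (log2 fold change 1.20, SE 0.36, adjusted p = 0.0295). It lost the call without replicate 1 or 2 of either group.

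**Figure D5:**
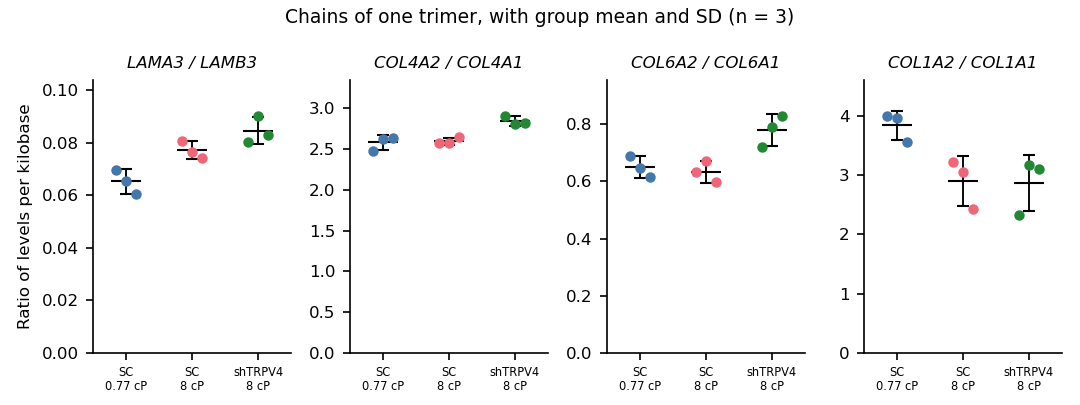
Ratio of the levels per kilobase of 2 chains of one trimer in each of the 9 samples, with the mean and SD of each group (n = 3, axes from 0). *COL6A2*/*COL6A1* lies between 0.719 and 0.830 in shTRPV4 cells and between 0.597 and 0.672 in SC cells at 8 cP, whereas *COL1A2*/*COL1A1* is highest in SC cells at 0.77 cP.

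Of the chains that fell in shTRPV4 cells, *COL13A1* changed with the smallest adjusted p of all members. It had 247, 246 and 238 CPM in SC cells at 8 cP and 168, 164 and 162 CPM in shTRPV4 cells, far apart beside the spread (log2 fold change -0.57, SE 0.04, adjusted p = 4.05e-07). *COL4A5* (ENSG00000188153, chrX:108439838-108697545, plus strand), a minor chain of basement membrane networks, fell from 23.2, 22.7 and 22.3 CPM to 17.0, 16.6 and 15.2 CPM, without overlap (log2 fold change -0.48, SE 0.06, adjusted p = 0.000102). Its neighbour *COL4A6*, read in the other direction from a start site 379 bases away in RefSeq, had 1.29, 1.44 and 1.34 CPM and 1.55, 1.76 and 1.52 CPM (log2 fold change 0.24, SE 0.14, adjusted p = 0.258).

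*COL17A1*, the transmembrane collagen of hemidesmosomes, fell from 32.4, 28.2 and 30.5 CPM to 24.1, 22.6 and 21.2 CPM, without overlap (log2 fold change -0.42, SE 0.06, adjusted p = 0.000224). *COL8A1* fell from 194, 191 and 211 CPM to 157, 159 and 166 CPM, again without overlap (log2 fold change -0.30, SE 0.05, adjusted p = 0.00117). Both tested transmembrane collagens thus fell in the knockdown.

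*COL18A1* fell from 303, 286 and 268 CPM to 233, 234 and 238 CPM and *LAMB2* from 213, 206 and 183 CPM to 169, 175 and 171 CPM, both without overlap. The log2 fold changes were -0.28 (SE 0.06, adjusted p = 0.00486) and -0.23 (SE 0.06, adjusted p = 0.0173). With *COL13A1*, these chains fell in both comparisons. *LAMB4*, at under 1 CPM in all samples, had 0.384, 0.445 and 0.661 CPM and 0.284, 0.243 and 0.133 CPM (log2 fold change -1.17, SE 0.34, adjusted p = 0.0232). Without replicate 1 or 2 of SC cells at 8 cP *LAMB2* lost its call, as *LAMB4* did without replicate 3 of either group. Of the 13 members called, 10 were called in all 16 alternatives, *COL7A1*, *COL6A2*, *COL6A3* and *COL13A1* among them. The 14 members of at least 5 CPM without a call, which include *COL1A1*, *COL1A2*, *COL5A1*, *LAMA5* and *LAMB1*, ranged from -0.38 for *COL9A2* to 0.09 for *COL6A1* on the log2 scale. The 11 under 5 CPM ranged from -0.43 to 0.42.

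Where both hairpin and viscosity differed (shTRPV4 cells at 8 cP, SC cells at 0.77 cP), 4 members rose and 16 fell, against 20.4% and 22.0% of all genes tested. Those that rose included *COL4A2* (0.24), *LAMA3* (0.15) and *COL20A1* (0.97) on the log2 scale. Of these, *COL4A2* was called in all 16 alternatives. The groups of *LAMA3* overlapped and it lost its call in 5, upper quartile scaling among them, and *COL20A1* lost its call in 9, DESeq2 and the replicate block among them. The falls were -1.55 for *COL8A2*, -1.16 for *COL9A3*, -1.01 for *LAMB4*, -0.99 for *COL9A2*, -0.96 for *COL1A2*, -0.82 for *COL13A1* and -0.73 for *COL15A1*. Those of *COL4A5*, *COL18A1*, *LAMB2*, *COL1A1* and *COL17A1* lay between -0.54 and -0.43, and those of *COL5A1*, *LAMA5*, *LAMB3* and *COL8A1* between -0.35 and -0.18. Among the falls, *LAMB4* lost its call without replicate 2 or 3 of SC cells at 0.77 cP or replicate 3 of shTRPV4 cells. *COL8A1* lost its call without replicate 1 of SC cells at 0.77 cP or replicate 2 of shTRPV4 cells. The other falls were called in all 16 alternatives. Summed over the 44 collagen genes, the level was 1994 ± 132 CPM in SC cells at 0.77 cP, 1782 ± 66.6 CPM in SC cells at 8 cP and 1657 ± 20.9 CPM in shTRPV4 cells, and over the 12 laminin genes 1884 ± 36.0, 1739 ± 69.6 and 1737 ± 65.2 CPM (SD, n = 3).

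Genes that act with the chains were described by lists. Among 20 receptors of collagens and laminins 18 were tested, and at 8 cP 2 rose and 6 fell, 11.1% and 33.3%, beside 9.57% and 9.69% of all genes (median log2 fold change -0.12, beside -0.01 for all genes). The smallest adjusted p were those of *ITGB4*, the laminin receptor subunit of hemidesmosomes (log2 fold change -0.42, SE 0.06, adjusted p = 0.000386), *DDR1*, a collagen receptor kinase (log2 fold change -0.41, SE 0.08, adjusted p = 0.00263), and *MRC2*, an endocytic collagen receptor (log2 fold change -0.27, SE 0.05, adjusted p = 0.00344). In shTRPV4 cells 1 rose and 7 fell, 5.56% and 38.9%, beside 9.02% and 11.0% of all genes (median -0.10). *ITGB1*, the common beta subunit of the collagen and laminin integrins, had 1918, 1946 and 1917 CPM in SC cells at 8 cP and 894, 943 and 935 CPM in shTRPV4 cells (log2 fold change -1.06, SE 0.05, adjusted p = 2.6e-09). *CD151*, a tetraspanin bound to laminin integrins, and *ITGA1*, a subunit of a collagen receptor, were at -0.32 (adjusted p = 0.000185) and -0.51 (adjusted p = 0.000917) on the log2 scale and also fell.

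Of 31 enzymes and chaperones of collagen synthesis 30 were tested, and at 8 cP 0 rose and 9 fell, the latter 30.0% beside 9.69% of all genes (median -0.12). These included the lysyl hydroxylase *PLOD1* (log2 fold change -0.21, SE 0.05, adjusted p = 0.00672), the lysyl oxidase *LOXL4* (log2 fold change -0.40, SE 0.10, adjusted p = 0.0116) and the prolyl hydroxylase subunit *P4HA2* (log2 fold change -0.19, SE 0.05, adjusted p = 0.015). In shTRPV4 cells 4 rose and 13 fell, 13.3% and 43.3%, beside 9.02% and 11.0% of all genes (median -0.14). *LOXL2*, a lysyl oxidase that cross-links collagen, had 516, 497 and 482 CPM in SC and 264, 283 and 293 CPM in shTRPV4 cells at 8 cP, without overlap (log2 fold change -0.83, SE 0.05, adjusted p = 2.08e-08). *P4HA1* (log2 fold change -0.60, SE 0.06, adjusted p = 8.95e-06) and *PLOD1* (log2 fold change -0.41, SE 0.05, adjusted p = 1.91e-05) followed.

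Of 29 partners in the matrix 22 were tested, and at 8 cP 0 rose and 6 fell, the latter 27.3% beside 9.69% of all genes (median -0.15). Fibronectin, *FN1*, had 1394, 1277 and 1018 CPM at 0.77 cP and 973, 858 and 852 CPM at 8 cP, without overlap (log2 fold change -0.46, SE 0.09, adjusted p = 0.00295). *TNXB*, a tenascin that binds collagen fibrils, was at -0.74 (SE 0.12, adjusted p = 0.000962) and *CCN2*, a matricellular protein, at -0.27 (SE 0.06, adjusted p = 0.00451). In shTRPV4 cells 6 rose and 6 fell, 27.3% each, beside 9.02% and 11.0% of all genes (median 0.11), with the smallest adjusted p for *NTN4*, a laminin-related netrin (log2 fold change -0.51, SE 0.05, adjusted p = 2.12e-06), *MATN2*, a matrilin (log2 fold change 0.67, SE 0.06, adjusted p = 3.99e-06), and *LUM*, a proteoglycan of collagen fibrils that is also among the stromal markers above (log2 fold change 1.09, SE 0.19, adjusted p = 0.000917).

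The counts of these lists at 8 cP depended on single libraries, in alternatives chosen after the data had been seen. Without replicate 1 of SC cells at 0.77 cP, 4 receptors, 3 partners and 1 enzyme were called as lower, and without replicate 3 of SC cells at 8 cP 5 receptors, 4 partners and 1 enzyme were. None of the 3 lists had a higher call in either, so the 2 receptors that rose were lost. The genes called in both were *DDR1*, *ITGB4*, *MRC2*, *SDC4*, *CCN2*, *FN1*, *TNXB* and *PLOD1*. With the GC trend removed, 2 receptors rose and 6 fell, 0 partners rose and 5 fell, and 1 enzyme rose and 5 fell. The receptors that rose were not the same, since *ITGA6*, higher in the reported fit, was then not called and *DAG1* was. For shTRPV4 against SC cells at 8 cP, 13 enzymes and 7 receptors were lower under each of these alternatives. The partners had 7 higher and 4 lower calls without replicate 3 of SC cells at 8 cP, and 6 higher and 8 lower in the other two.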

How the data were processed

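The 9 samples of MDA-MB-231 RNA were grouped by their titles. The authors prepared stranded poly(A) libraries, mapped the reads to GRCh38.p13 with HISAT2 2.2.1 and totalled reads per gene with HTSeq 0.13.5. The deposited values were counts for 60664 genes, without normalization. The submitters' processing notes also name SAMtools 1.1.3 and DESeq.

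Here edgeR 4.0.16 (R 4.3.3) was used, with TMM scaling, the filter filterByExpr and a quasi-likelihood fit of all 9 samples in which each group had its own coefficient. The Benjamini-Hochberg adjustment was made over 18264 genes, with a threshold of 0.05. The standard error (SE) is the absolute log2 fold change divided by the square root of the F statistic. CPM is relative to the TMM-scaled library size, and lengths, GC content and positions come from GENCODE release 44 (GRCh38). Ratios of chains were compared by exact permutation tests. Depth was between 64571681 and 103518036 counts per sample. Replicate spread (common biological coefficient of variation 0.0633) rather than counting error set the precision of the abundant chains. Counting error weighed more for chains with few counts, such as *COL15A1* (96 to 231 per sample) and *COL8A2* (35 to 152). The fit was tested on simulated data.

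Members named are the chains of the main trimers, the 5 highest per kilobase, every member called, uncalled ones of at least 5 CPM, and, from each list, the 3 with the smallest adjusted p. A member counted in the totals is not reported here by name or value. The members and lists were chosen with earlier results of these data known. Alternatives were DESeq2 1.42.0, upper quartile scaling, no filter, a minimum of 10 counts in all samples, a fit of just the 6 samples compared, a replicate block, each sample left out, the longest transcript as length, and, added after the data had been seen, removal of the GC trend and counts of the lists without the libraries named.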

Additional observations from a re-analysis of the deposited data

How the results depend on the processing

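The number of members called for viscosity in SC cells, 14 in the reported fit, was between 6 and 17 when 1 sample was left out and 9 with the GC trend removed, and between 15 and 17 under the other alternatives. *COL9A2* was lost with DESeq2. *LAMB3*, just short of the threshold, was called as lower in 7 alternatives. For shTRPV4 against SC cells at 8 cP, 13 in the reported fit, the number was between 11 and 13 when 1 sample was left out and between 13 and 15 otherwise. Where both hairpin and viscosity differed, 20 in the reported fit, it was between 17 and 20 and between 20 and 23. No named value changed sign under an alternative in which it was called. Correlations between same-numbered replicates of different groups were small, between -0.055 and 0.090. Between the SC groups they were all positive (0.032 to 0.090) and above those of replicates with different numbers (-0.059 to 0.017). The labels do not give the numbers as pairs, and they were not taken as pairs. With the replicate number as a replicate block, 15, 13 and 22 members were called. With the longest transcript as the length, the levels became 102 CPM per kilobase for *LAMB3*, 51.8 for *LAMC1*, 43.6 for *COL18A1*, 36.4 for *LAMB2* and 37.6 for *COL5A1*, so that *COL5A1* passed *LAMB2*. Depth limits the rare chains, since the 11 uncalled ones under 5 CPM had standard errors between 0.13 and 0.51 for viscosity.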
